A study of Mus musculus with 12 samples.

Results

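The genes described here are 10 collagen genes whose proteins form networks, beaded filaments or anchoring structures rather than the thick banded fibrils: *Col4a1*, *Col4a2*, *Col6a1*, *Col6a2*, *Col6a3*, *Col7a1*, *Col8a1*, *Col12a1*, *Col16a1* and *Col18a1*. They were taken from the expression table by name, as 10 of its 46731 genes, and the set was drawn up with earlier results of these data known. The RNA came from ATDC5, a mouse teratocarcinoma line that is grown as a model of chondrocyte differentiation, in a study of the RNA helicase DDX5 in osteoarthritis. Cells carried a lentiviral short hairpin RNA driven by the U6 promoter, either the negative control (shRNA-NC, a genotype that the labels name wildtype) or one against *Ddx5* (shRNA-*Ddx5*, labelled as a knockdown). The paper's methods give selection with puromycin for the cells with the hairpin against *Ddx5*. Each line was sampled without stimulation, here called medium, and after the cytokines IL-1β (5 ng/ml) and TNF-α (25 ng/ml), all at 6 h. Each of the 4 groups had 3 libraries, which made 12 in all.

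Each hairpin was carried by 1 stable line, so a difference between the lines and the effect of less *Ddx5* cannot be told apart. *Ddx5* itself had a mean level of 319 ± 22.3 FPKM (SD, n = 3) in shRNA-NC and 103 ± 13.9 in shRNA-*Ddx5* in medium, and of 310 ± 14.9 and 99.5 ± 5.27 with cytokines. FPKM counts fragments relative to the length of the gene and a size set for each library, so levels of different genes may be set side by side. That size was 1.06 to 1.08 times the fragments on genes in shRNA-NC and 0.986 to 1.02 times in shRNA-*Ddx5* in medium. With cytokines it was 0.973 to 1.04 and 0.957 to 0.982 times. With scaling to the sum of fragments instead, the log2 fold change of *Col6a1* between the hairpins in medium was 1.33 in place of 1.43. The libraries held 14119199 to 19276520 fragments on genes, the fewest in shRNA-NC in medium replicate 3. Of the markers that define chondrocytes, *Sox9* lay between 5.08 and 27.8 FPKM, while *Acan*, the core protein of the large cartilage proteoglycan, did not exceed 0.0325 FPKM in any library. *Col2a1*, the main cartilage collagen, had a mean of 12.4 FPKM in shRNA-NC and 0.899 FPKM in shRNA-*Ddx5* in medium, and of 6.33 and 0.779 FPKM with cytokines (log2 fold change -2.80 and -1.98, limma adjusted p = 5.92e-06 and 5.5e-05).

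Collagen IV and collagen VIII assemble into sheet-like networks, the first in basement membranes. Collagen VI forms beaded microfibrils that surround cells, in cartilage most densely in the pericellular matrix around each chondrocyte, from trimers that need the α1, α2 and α3 chains together. Collagen VII is the anchoring fibril that ties basement membrane to the stroma beneath. Collagens XII and XVI belong to the fibril-associated collagens with interrupted triple helices (FACIT), which sit on the surface of other fibrils, and collagen XVIII is a basement membrane collagen that carries heparan sulfate.

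In shRNA-NC in medium, collagen VI was by far the most abundant of these collagens. *Col6a1* had a mean of 120 ± 14.0 FPKM, *Col6a2* of 42.8 ± 3.14 and *Col6a3* of 13.0 ± 1.36, and each of the 3 lay above the next in every library of the group. *Col16a1* (6.59 ± 2.48 FPKM) and *Col12a1* (3.85 ± 0.425 FPKM) followed, with ranges that overlapped. *Col18a1* (1.14 ± 0.384 FPKM) and *Col8a1* (1.08 ± 0.326 FPKM) also overlapped, and *Col7a1* lay below both at 0.536 ± 0.203 FPKM. The collagen IV chains came last, *Col4a2* at 0.0984 ± 0.0257 FPKM and *Col4a1* at 0.0945 ± 0.00929 FPKM, and did not separate from each other. The summed level of the 10 genes was 189 ± 15.7 FPKM in shRNA-NC and 489 ± 38.7 FPKM in shRNA-*Ddx5* in medium, and 138 ± 50.1 and 559 ± 29.8 FPKM with cytokines. Between 84.7% and 92.9% of that sum was *Col6a1* and *Col6a2* together, so the sum says little about the other 8. In bulk RNA, more cells that express a gene and more RNA of it per cell cannot be told apart.

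**Figure D1:**
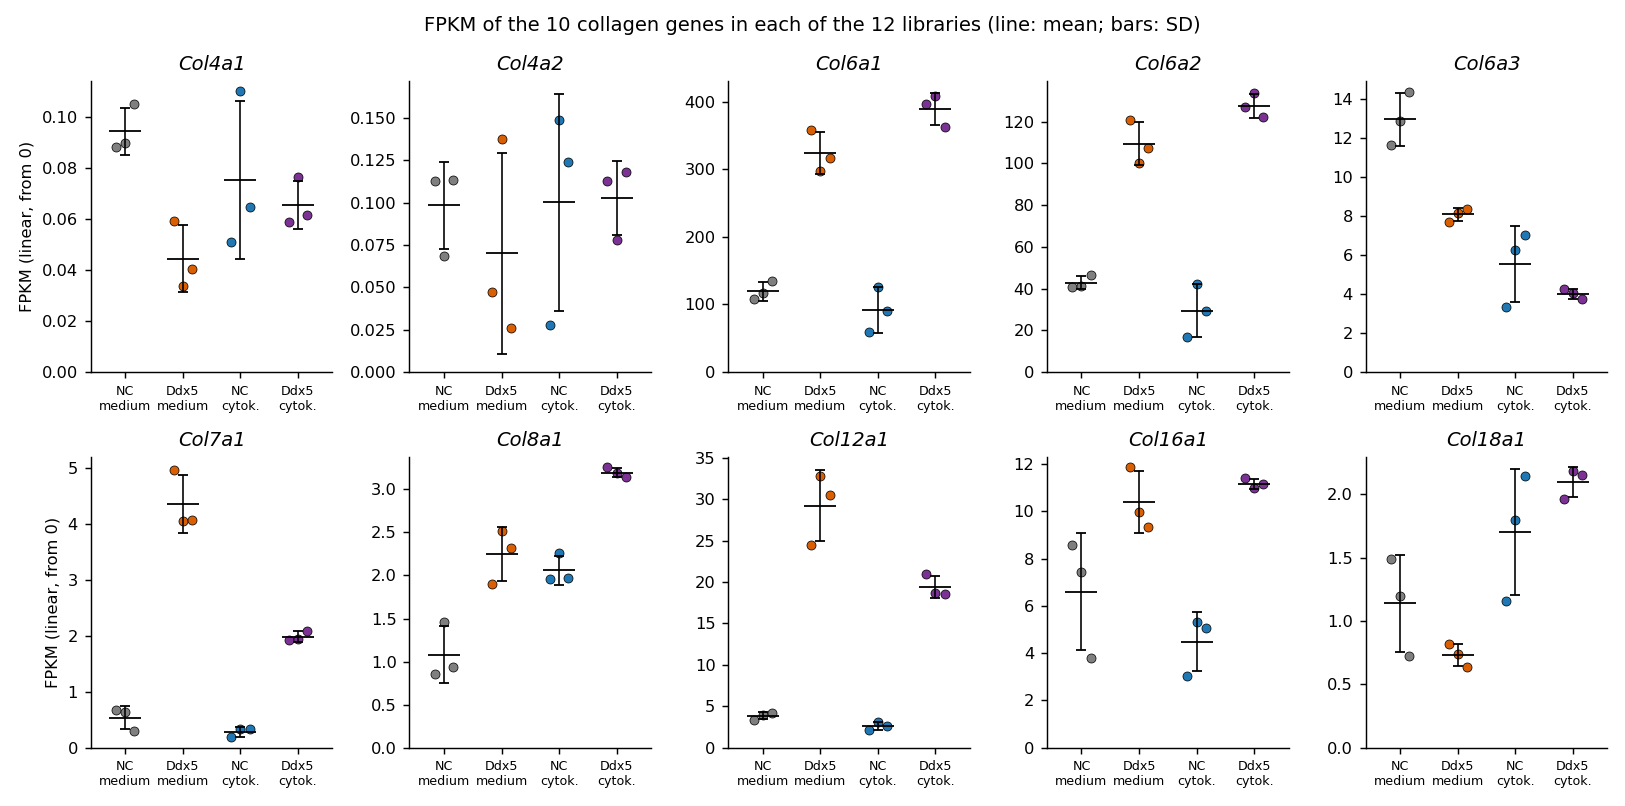
FPKM of each of the 10 genes (y axis, linear, from 0, with its own scale in each panel) in the 12 libraries, with the 4 groups along the x axis (NC, shRNA-NC; Ddx5, shRNA-Ddx5; cytok., cytokines); points are libraries, horizontal lines are means and bars are SD (n = 3). The shRNA-Ddx5 points of Col6a1, Col6a2, Col7a1, Col12a1 and Col16a1 sit above all shRNA-NC points, those of Col6a3 lie below the shRNA-NC points in medium, and neither collagen IV gene exceeded 0.149 FPKM.

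Of the 10 genes, 8 passed the filter on low values (at least 1 FPKM in at least 3 libraries), as did 12368 genes of the table. *Col4a1* and *Col4a2* did not and were not tested. *Col7a1* reached 1 FPKM in 6 libraries, all of them shRNA-*Ddx5*, so its entry into the test already implied a difference. In medium, 6 of the 8 were higher in shRNA-*Ddx5* (*Col6a1*, *Col6a2*, *Col7a1*, *Col8a1*, *Col12a1* and *Col16a1*), 1 was lower (*Col6a3*) and 1 did not pass the threshold (*Col18a1*), by limma with an adjusted p under 0.05. The same threshold was passed by 47.0% of all genes tested in this comparison, 25.3% of them higher and 21.7% lower. With cytokines, 6 of the 8, again these 6, were higher, none was lower and 2 (*Col6a3* and *Col18a1*) did not pass, against 45.6% of all genes tested, 23.5% higher and 22.1% lower. The called genes were also those whose 3 shRNA-*Ddx5* libraries lay wholly above or wholly below the 3 shRNA-NC libraries. All above were 28.7% of genes tested in medium and 31.7% with cytokines, and all below were 24.8% and 29.9%. The median log2 fold change of the 8, *Col7a1* among them, was 0.99 in medium and 1.20 with cytokines, and that of all genes tested was 0.03 and 0.01. Without *Col7a1* the middle of the 7 values was 0.65 in medium, that of *Col8a1*, and with cytokines it was that of *Col16a1*. These counts describe the 8 that passed the filter and not all 10, and without *Col7a1* 5 of 7 were higher in each comparison.

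**Figure D2:**
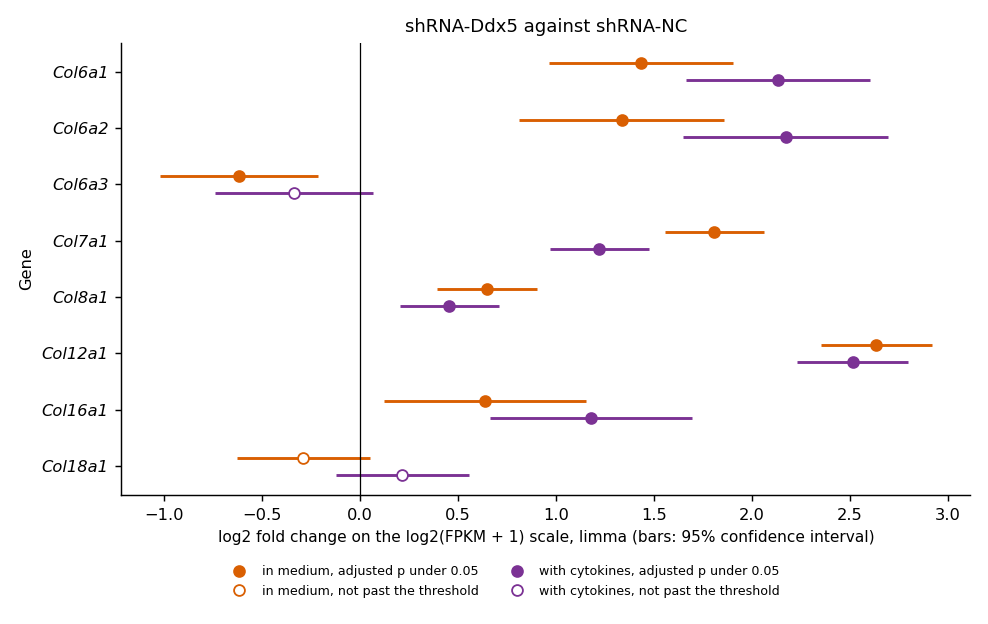
Log2 fold change of shRNA-Ddx5 against shRNA-NC (x axis, on the log2(FPKM + 1) scale, limma) for the 8 collagen genes tested (y axis), in medium (orange) and with cytokines (purple); bars are 95% confidence intervals, filled points passed an adjusted p of 0.05 and open points did not. Col12a1 had the highest fold change in both comparisons (2.63 and 2.51), Col6a3 was negative in both (-0.62 and -0.34), and both intervals of Col18a1 cross 0.

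In medium the collagen VI chains moved in opposite directions. *Col6a1* encodes the α1 chain (gene 12833, GRCm39 chr10:76544626-76561878, minus strand). Its level in medium was 107, 116 and 135 FPKM in shRNA-NC and 359, 297 and 316 FPKM in shRNA-*Ddx5*. With cytokines it was 59.0, 126 and 90.9 FPKM in shRNA-NC and 397, 408 and 362 FPKM in shRNA-*Ddx5*. Every shRNA-*Ddx5* library thus lay above every shRNA-NC library, and the shRNA-NC libraries with cytokines were the most scattered. The ratio of group means was 2.71 in medium and 4.22 with cytokines. The log2 fold change was 1.43 (95% interval 0.96 to 1.90, limma adjusted p = 0.000278) in medium and 2.13 (1.66 to 2.60, adjusted p = 1.76e-05) with cytokines.

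*Col6a2*, the α2 chain (gene 12834, GRCm39 chr10:76431590-76459464, minus strand), followed the same course at a lower level. It stood at 40.9, 41.0 and 46.4 FPKM in shRNA-NC and at 121, 100 and 107 FPKM in shRNA-*Ddx5* in medium. With cytokines the values were 16.7, 42.1 and 29.4 FPKM against 127, 134 and 122 FPKM. Again no shRNA-*Ddx5* library overlapped a shRNA-NC library, and the lowest value of all was shRNA-NC with cytokines replicate 1, as for *Col6a1*. On the log2 scale the change was 1.34 (0.81 to 1.86, limma adjusted p = 0.000903) in medium and 2.17 (1.65 to 2.69, adjusted p = 3.26e-05) with cytokines.

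*Col6a3*, the long α3 chain (gene 12835, GRCm39 chr1:90694582-90771710, minus strand), lies on another chromosome and did the reverse in medium. There it was 11.7, 12.9 and 14.4 FPKM in shRNA-NC and 7.71, 8.17 and 8.36 FPKM in shRNA-*Ddx5*, so all shRNA-*Ddx5* libraries were lower. The values with cytokines were 3.35, 6.27 and 7.04 FPKM in shRNA-NC and 4.25, 4.06 and 3.73 FPKM in shRNA-*Ddx5*. Here the groups overlapped through shRNA-NC replicate 1, the lowest of the 6. Its log2 fold change was -0.62 (-1.02 to -0.22, limma adjusted p = 0.0167) in medium and -0.34 (-0.74 to 0.06, adjusted p = 0.155) with cytokines. The call in medium was lost without shRNA-NC in medium replicate 3 (-0.55, limma adjusted p = 0.0518), and without shRNA-NC with cytokines replicate 1 the difference with cytokines was -0.61 (adjusted p = 0.000768).

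The balance between the chains therefore differed between the groups, although *Col6a1* and *Col6a2* stayed close to each other. *Col6a1* exceeded *Col6a2* by 2.63 to 2.91 times in shRNA-NC in medium, by 2.94 to 2.97 times in shRNA-*Ddx5* in medium, by 3.00 to 3.53 times in shRNA-NC with cytokines and by 2.97 to 3.12 times in shRNA-*Ddx5* with cytokines. *Col6a3* amounted to 10.7% to 11.1% of the *Col6a1* level in shRNA-NC in medium and to 2.15% to 2.75% in shRNA-*Ddx5* in medium. With cytokines the share was 4.96% to 7.74% in shRNA-NC and 0.997% to 1.07% in shRNA-*Ddx5*. None of these 4 ranges of the *Col6a3* share overlapped another. The ratios are given as a description, and the table counts whole genes, so the splice forms of *Col6a3* were not separated. The chains that can take the place of α3 were scarce, *Col6a4* at most 0.589 FPKM, *Col6a5* at most 0.0175 FPKM and *Col6a6* at most 0.0437 FPKM in any library.

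**Figure D3:**
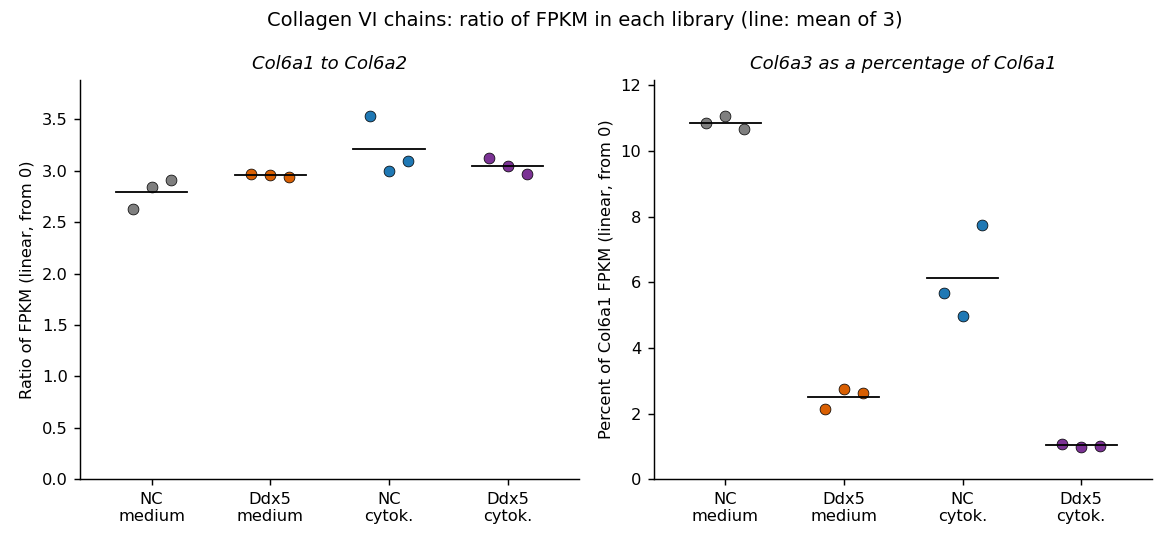
Ratios between collagen VI chains in each library (points, n = 3 per group; lines are means), with the 4 groups along the x axis: left, Col6a1 to Col6a2 as a ratio of FPKM (y axis, linear, from 0); right, Col6a3 as a percentage of Col6a1 FPKM (y axis, linear, from 0). The left panel stays between 2.63 and 3.53 in all libraries, whereas the right panel runs from 11.1% in shRNA-NC in medium to 0.997% in shRNA-Ddx5 with cytokines.

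*Col6a1* and *Col6a2* are neighbours on the same strand, 85161 bases apart. The only genes that the table lists between them, the long noncoding RNAs *Gm51774* and *Gm35608*, did not exceed 1.13 FPKM and were not tested. The rise was not shared by all genes around the pair. *Lss*, a sterol synthesis enzyme on the *Col6a2* side, was higher in shRNA-*Ddx5* (log2 fold change 0.59 in medium and 1.09 with cytokines, limma adjusted p = 0.00146 and 2.29e-05), but *Pcbp3* (-0.39 and -0.36) and the folate carrier *Slc19a1* (-0.46 and -0.73), which lie between *Col6a1* and *Col18a1*, were lower in both comparisons (limma adjusted p of 0.00344 and 0.0056 for *Pcbp3*, 0.00144 and 6.78e-05 for *Slc19a1*). *Col18a1* itself starts 326134 bases beyond *Col6a1* and passed in neither comparison.

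The sequence before the transcribed part is shown for the pair of collagen VI genes that rose together and for *Col7a1*, which had the largest ratio of group means in medium, because the study asked whether DDX5 acts on G-quadruplexes, stacked folds that guanine-rich DNA can form. Each run is the 250 bases upstream of the outermost 5′ end that the table or the GENCODE annotation gives the gene, on GRCm39, written 5′ to 3′ on the strand of the gene. Capitals mark a stretch of 4 runs of 3 or more guanines joined by loops of 1 to 7 bases, searched on both strands.
*Col6a1* (chr10:76562284-76562533, minus strand): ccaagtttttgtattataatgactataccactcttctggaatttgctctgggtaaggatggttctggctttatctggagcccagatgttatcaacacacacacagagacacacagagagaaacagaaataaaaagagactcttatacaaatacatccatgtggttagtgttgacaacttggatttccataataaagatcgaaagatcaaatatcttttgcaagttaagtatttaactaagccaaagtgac
*Col6a2* (chr10:76459550-76459799, minus strand): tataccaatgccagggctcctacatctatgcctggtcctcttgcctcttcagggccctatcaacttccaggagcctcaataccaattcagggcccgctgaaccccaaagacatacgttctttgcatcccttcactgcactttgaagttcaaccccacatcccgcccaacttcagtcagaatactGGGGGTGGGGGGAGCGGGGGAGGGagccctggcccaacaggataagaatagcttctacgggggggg
*Col7a1* (chr9:108782397-108782646, plus strand): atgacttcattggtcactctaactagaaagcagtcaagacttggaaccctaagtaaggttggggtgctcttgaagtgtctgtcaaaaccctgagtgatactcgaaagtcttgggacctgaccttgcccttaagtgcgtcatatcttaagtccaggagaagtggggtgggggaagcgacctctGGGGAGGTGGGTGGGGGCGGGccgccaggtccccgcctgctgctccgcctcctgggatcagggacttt
*Col6a2* held 1 such stretch of 24 bases, at 66 to 43 bases upstream, *Col7a1* held 1 of 21 bases, at 68 to 48 bases upstream, and *Col6a1* held none in this window. Not every window adjoins the gene that was quantified. *Col6a1* was quantified up to 76561878, and its window starts at 76562284. *Col16a1* was quantified from 129941633, and its window ends at 129941153. The bases between were not searched, and the window of *Col4a2* lay within *Col4a1*. In all, 4 of the 10 windows held the pattern (also *Col8a1* and *Col16a1*), against 11.0% of 46582 windows of the table and 14.8% of the 12329 windows of genes tested. The GC box GGGCGG, searched on both strands, was in 4 of the 10 windows (34.0% of windows of genes tested), and in *Col7a1*, as for some of the boxes of *Col8a1*, it lay inside the guanine-rich stretch. CCAAT was in 5 (34.2%), the AP-1 element TGANTCA in 1, *Col12a1* (5.54%), and neither TATAAA (10.6%) nor the TEAD element GGAATG (11.8%) was in any. A match is a match of letters in this window and not evidence of a fold or of binding.

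*Col12a1*, the main FACIT collagen of tendon and dense connective tissue (gene 12816, GRCm39 chr9:79506269-79628423, minus strand), showed the highest change of the 8 on the log2(FPKM + 1) scale. On that scale low genes are shrunk, and with limma voom in medium *Col7a1* (3.04) stood above *Col12a1* (2.92). In medium it was 3.40, 3.91 and 4.25 FPKM in shRNA-NC and 24.4, 32.8 and 30.5 FPKM in shRNA-*Ddx5*. With cytokines it was 2.09, 3.10 and 2.60 FPKM and 21.0, 18.7 and 18.6 FPKM. The lowest shRNA-*Ddx5* library was above the highest shRNA-NC library in both comparisons, and the ratio of group means was 7.59 in medium and 7.48 with cytokines. The log2 fold change was 2.63 (2.35 to 2.92, limma adjusted p = 1.76e-07) and 2.51 (2.23 to 2.80, adjusted p = 2.59e-07). With this rise *Col12a1* moved from the fifth to the third place among the 10, above *Col6a3* and *Col16a1*, in both shRNA-*Ddx5* groups.

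*Col16a1*, the other FACIT member (gene 107581, GRCm39 chr4:129941633-129993070, plus strand), rose less. In medium it was 8.56, 7.42 and 3.81 FPKM in shRNA-NC and 11.9, 9.97 and 9.33 FPKM in shRNA-*Ddx5*. Under cytokines the libraries stood at 3.04, 5.33 and 5.07 FPKM and 11.4, 11.0 and 11.1 FPKM. The groups did not overlap in either comparison, and shRNA-NC in medium replicate 3, the shallowest library, had the lowest value of its group. This amounted to a log2 fold change of 0.64 (0.12 to 1.15, limma adjusted p = 0.0428) in medium and 1.18 (0.66 to 1.69, adjusted p = 0.00185) with cytokines. Without that library the change in medium was 0.34 (limma adjusted p = 0.139), and 8 of the 12 fits with a single library removed no longer called the gene. *Col16a1* overlaps the antisense noncoding genes *Gm12963* and *Gm46871*, which held at most 11 and 24 fragments in a library, and reads of the strands could not be told apart where counting ignored strand.

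*Col7a1* (gene 12836, GRCm39 chr9:108782654-108813943, plus strand) had few fragments in shRNA-NC. In medium it was 0.671, 0.634 and 0.302 FPKM in shRNA-NC, from 42 to 128 fragments, and 4.96, 4.05 and 4.07 FPKM in shRNA-*Ddx5*, from 676 to 755 fragments. With cytokines it was 0.188, 0.335 and 0.328 FPKM and 1.92, 1.94 and 2.09 FPKM. The groups were far apart in both comparisons, by a ratio of means of 8.14 in medium and 7.01 with cytokines. The log2 fold change was 1.81 (1.55 to 2.06, limma adjusted p = 1e-06) and 1.22 (0.97 to 1.47, adjusted p = 1.21e-05). Adding 1 to each FPKM before taking logarithms shrinks the change of a gene at this level, and on the recovered fragments with limma voom the log2 fold change was 3.04 in medium and 2.83 with cytokines.

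*Col8a1*, a short network collagen that vascular and corneal cells lay down (gene 12837, GRCm39 chr16:57444619-57575100, minus strand), rose by a smaller ratio. In medium it was 0.854, 1.46 and 0.938 FPKM in shRNA-NC and 1.90, 2.51 and 2.32 FPKM in shRNA-*Ddx5*. After cytokines the values were 1.96, 2.26 and 1.97 FPKM and 3.25, 3.19 and 3.14 FPKM. The shRNA-*Ddx5* libraries were the higher ones in both comparisons, with no overlap. Its log2 fold change was 0.65 (0.39 to 0.90, limma adjusted p = 0.000915) and 0.46 (0.20 to 0.71, adjusted p = 0.00753). The second chain of collagen VIII, *Col8a2*, did not exceed 0.108 FPKM.

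*Col18a1*, whose C-terminal fragment is endostatin (gene 12822, GRCm39 chr10:76888013-77002391, minus strand), did not separate by hairpin. In medium it was 1.49, 1.20 and 0.726 FPKM in shRNA-NC and 0.815, 0.742 and 0.636 FPKM in shRNA-*Ddx5*. With cytokines it was 1.16, 1.80 and 2.14 FPKM and 1.96, 2.18 and 2.15 FPKM. The ranges overlapped in both comparisons. The log2 fold change was -0.29 (-0.63 to 0.05, limma adjusted p = 0.146) and 0.22 (-0.12 to 0.55, adjusted p = 0.279), and without shRNA-NC in medium replicate 3 the first was -0.44 (limma adjusted p = 0.0338).

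The classical collagen IV chains were barely detected. *Col4a1* (gene 12826, GRCm39 chr8:11248423-11362889, minus strand) and *Col4a2* (gene 12827, GRCm39 chr8:11362805-11499287, plus strand) stand head to head and share 85 bases at their 5′ ends. *Col4a1* was represented by 5 to 17 fragments per library and *Col4a2* by 3 to 18, so that neither exceeded 0.149 FPKM. In medium *Col4a1* had 15, 15 and 13 fragments in shRNA-NC and 8, 5 and 6 in shRNA-*Ddx5*, and in a fit without the filter its log2 fold change was -0.07 (limma adjusted p = 0.0427), against -0.04 for *Col4a2* (adjusted p = 0.653). With cytokines the fragments of both genes overlapped between the hairpins. Among the other collagen IV chains, *Col4a5* was the one above 1 FPKM. This X-linked chain of the α3α4α5 and α5α6 networks rose in medium, from 5.53 to 17.7 FPKM, and with cytokines, from 5.03 to 17.2 FPKM, by a log2 fold change of 1.53 and 1.62 (limma adjusted p = 1.75e-05 and 1.13e-05). Its partners *Col4a3*, *Col4a4* and *Col4a6* did not exceed 0.0337, 0.1002 and 0.0691 FPKM in any library.

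Cytokines were next compared with medium within each line. In shRNA-NC 1 of the 8 genes tested was higher with cytokines (*Col8a1*), 2 were lower (*Col6a3* and *Col12a1*) and 5 did not pass, beside 33.8% of all genes tested, 18.6% higher and 15.2% lower, a share close to that of the 8. In shRNA-*Ddx5* 2 were higher (*Col8a1* and *Col18a1*), 3 were lower (*Col6a3*, *Col7a1* and *Col12a1*) and 3 did not pass, beside 27.0% of all genes tested, 13.5% in each direction. By the ranges alone, 1 gene lay wholly above and 2 wholly below their libraries in medium in shRNA-NC (23.7% and 22.0% of all genes tested), and 4 and 3 did in shRNA-*Ddx5* (23.3% and 24.0%), where *Col6a1* and *Col6a2* were above without passing the test. *Col6a3* fell by 1.14 on the log2 scale in shRNA-NC (limma adjusted p = 0.00075) and by 0.86 in shRNA-*Ddx5* (adjusted p = 0.00512), to 42.8% and 49.7% of its level in medium. *Col12a1* fell by 0.44 (limma adjusted p = 0.0226) and 0.56 (adjusted p = 0.00799). *Col8a1* was the one gene that rose in both lines, by 0.57 (limma adjusted p = 0.00331) and 0.37 (adjusted p = 0.0332). Both of these smaller changes were sensitive to single libraries, since 4 of the 12 fits with a single library removed no longer called *Col12a1* in shRNA-NC, and 5 of the 12 no longer called *Col8a1* in shRNA-*Ddx5*. The *Col12a1* call in shRNA-NC was also lost with no filter and in the 6 libraries alone (limma adjusted p = 0.0508 and 0.0531). The *Col8a1* call in shRNA-*Ddx5* was lost with no filter, with a pseudocount of 0.1 and with scaling to the sum of fragments (limma adjusted p = 0.0752, 0.0643 and 0.0609).

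*Col18a1* rose with cytokines in shRNA-*Ddx5* by 0.84 on the log2 scale (limma adjusted p = 0.00188), with its 3 libraries at 1.96 to 2.18 FPKM all above the 0.636 to 0.815 FPKM in medium. In shRNA-NC its change was 0.34 (limma adjusted p = 0.116), and 0.49 without shRNA-NC with cytokines replicate 1 (adjusted p = 0.0278). *Col7a1* fell by 0.84 in shRNA-*Ddx5* (limma adjusted p = 0.000229), to 45.6% of its level in medium, while in shRNA-NC, where its level was 52.9% of that in medium, the change was -0.25 (adjusted p = 0.114). That change passed without shRNA-NC in medium replicate 3 (-0.37, limma adjusted p = 0.026) and with limma voom (-0.91, adjusted p = 0.0421). *Col6a1* and *Col6a2* were lower on average with cytokines in shRNA-NC (-0.43 and -0.61, limma adjusted p = 0.14 and 0.0672) and higher in shRNA-*Ddx5* (0.27 and 0.22, adjusted p = 0.392 and 0.531), and none of these 4 differences passed. The values in shRNA-NC turned on single libraries of the cytokine group. Without replicate 2 they were -0.69 and -0.91 and passed (limma adjusted p = 0.0128 and 0.0047), and without replicate 1 they were -0.15 and -0.27 (adjusted p = 0.47 and 0.164). Both also passed with quantile normalization (-0.67 and -0.79, limma adjusted p = 0.0353 and 0.0262), and *Col6a2* with limma voom (-0.64, adjusted p = 0.0439). *Col16a1* did not pass in either line (-0.44 and 0.10, limma adjusted p = 0.172 and 0.787), but its value in shRNA-NC ran from -0.74 to -0.23 as single libraries were left out and passed without shRNA-NC in medium replicate 3 (-0.74, adjusted p = 0.00985).

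**Figure D4:**
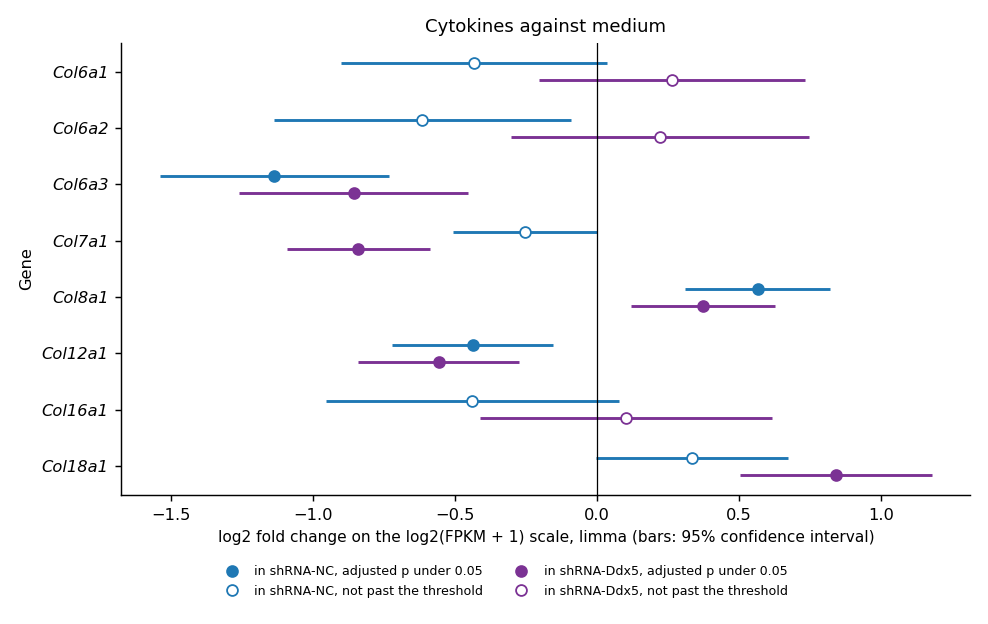
Log2 fold change of cytokines against medium (x axis, on the log2(FPKM + 1) scale, limma) for the 8 collagen genes tested (y axis), in shRNA-NC (blue) and shRNA-Ddx5 (purple); bars are 95% confidence intervals, filled points passed an adjusted p of 0.05 and open points did not. Col6a3 has the lowest values in both lines (-1.14 and -0.86), and the highest value is that of Col18a1 in shRNA-Ddx5 (0.84).

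Whether the hairpin had a different effect with and without cytokines was tested as an interaction. It passed for 1 of the 8 genes, *Col7a1*, beside 8.21% of all genes tested, 3.46% higher and 4.75% lower. For *Col7a1* the difference of the log2 fold changes was -0.59 (-0.95 to -0.23, limma adjusted p = 0.0493), but the ratios of means were 8.14 and 7.01, and with a pseudocount of 0.1 in place of 1 the difference was -0.39 (adjusted p = 0.57). None of the 12 fits with a single library removed called it. For *Col6a1* and *Col6a2* it was 0.70 (0.04 to 1.36, limma adjusted p = 0.189) and 0.84 (0.10 to 1.58, adjusted p = 0.159). Without shRNA-NC with cytokines replicate 2, the library with the highest values of both genes in its group, it was 0.96 and 1.13 (limma adjusted p = 0.0302 and 0.0207).

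Across the 12 libraries, *Col6a1* and *Col6a2* were each other's most similar gene among all genes tested (Pearson r = 0.996 of log2(FPKM + 1)). For *Col12a1* the most similar gene was *Arhgef6* (r = 0.997) and the most similar of the 8 was *Col7a1* (r = 0.957). For *Col7a1* it was *Habp4* (r = 0.992), for *Col16a1* *Elk1* (r = 0.986), for *Col18a1* *Armc5* (r = 0.975) and for *Col8a1* *Sh3kbp1* (r = 0.963). *Col6a3* stood apart, since its most similar gene was *Plxnb2* (r = 0.978), its highest r with any of the other 7 was -0.11 (*Col7a1*) and its lowest was -0.80 (*Col8a1*). The libraries share the 4 groups, so these values describe group patterns, and they carry no test.

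The other genes of the pathway were read from lists of known partners, whose counts stand beside the 25.3% higher and 21.7% lower among all genes tested in medium and the 23.5% and 22.1% with cytokines. Of 33 genes for chain folding, modification and crosslinking, 30 were tested, and 16 were higher and 3 lower in shRNA-*Ddx5* in medium, 22 and 1 with cytokines. The procollagen C-proteinase enhancer *Pcolce* went up in medium, from 172 to 501 FPKM, and with cytokines, from 134 to 451 FPKM (log2 fold change 1.53 and 1.75, limma adjusted p = 1.92e-06 and 8.4e-07). The prolyl 3-hydroxylase *P3h2*, which modifies collagen IV, rose by 1.43 and 0.99 on the log2 scale, and *Crtap*, a subunit of the prolyl 3-hydroxylation complex, by 1.39 and 1.33 (limma adjusted p between 2.4e-06 and 3.58e-05). The collagen chaperone *Serpinh1* went from 220 to 355 FPKM and from 236 to 347 FPKM (0.67 and 0.56, adjusted p = 0.00139 and 0.00451). *Lox*, the lysyl oxidase that starts crosslinks, fell from 233 to 106 FPKM and from 157 to 114 FPKM (-1.13 and -0.45, limma adjusted p = 2.13e-05 and 0.00755). The median log2 fold change of the list was 0.44 and 0.52, against 0.03 and 0.01 for all genes tested.

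Of 27 basement membrane partners, 13 were tested, with 6 higher and 5 lower in medium and 8 higher and 3 lower with cytokines (all genes tested, 47.0% and 45.6% in either direction). Of the higher genes, *Npnt* reached the filter only with the shRNA-*Ddx5* libraries, that is, fewer than 3 shRNA-NC libraries held 1 FPKM of it. Without *Npnt* the counts were 5 higher and 5 lower of 12 in medium and 7 and 3 with cytokines. *Sparc*, a matricellular protein that binds collagen IV, rose by 1.91 and 2.21 on the log2 scale, from 135 to 510 FPKM and from 85.7 to 399 FPKM (limma adjusted p = 1.76e-07 and 6.9e-08). *Nid2*, a nidogen that links basement membrane components, also rose in both (0.88 and 1.38, limma adjusted p = 0.000821 and 3.6e-05), while perlecan, *Hspg2*, passed with cytokines (1.46, limma adjusted p = 0.000304) and in medium had 0.56 (adjusted p = 0.0586). *Egfl7* fell by 1.00 and 0.61 on the log2 scale (limma adjusted p = 0.0032 and 0.0384), and *Smoc2* by 0.71 and 0.89 (adjusted p = 0.000163 and 3.31e-05). The laminin α chain genes *Lama1* to *Lama5* and *Nid1* did not pass the filter.

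Among 28 receptors and binding partners, 19 were tested, with 11 higher and 2 lower in medium and 12 higher and 4 lower with cytokines (all genes tested, 25.3% and 21.7%, then 23.5% and 22.1%). *Dcn* and *Fmod*, higher in both, reached the filter only with the shRNA-*Ddx5* libraries, and *Itga6*, lower in both, only with the shRNA-NC libraries, so that their entry already implied a difference. Without these 3 the counts were 9 higher and 1 lower of 16 in medium and 10 and 3 with cytokines. The collagen-binding integrin subunit *Itga11* rose by 1.44 and 1.09 on the log2 scale, and its partner *Itgb1* by 0.78 and 0.49. *Antxr1*, a receptor for collagen VI, rose from 15.3 to 34.0 FPKM without cytokines (1.10 and 0.85 on the log2 scale without and with cytokines, limma adjusted p = 1.28e-05 and 6.84e-05). *Cspg4*, the NG2 proteoglycan that binds collagen VI, fell from 8.67 to 3.61 FPKM and from 2.96 to 0.971 FPKM (-1.06 and -0.96, limma adjusted p = 0.0011 and 0.00219). *Antxr2*, the close relative of *Antxr1*, did not pass in medium (0.16, limma adjusted p = 0.368) and fell with cytokines by 1.03 on the log2 scale (adjusted p = 0.000159). The laminin receptor subunit *Itga6* fell by 1.03 and 1.22, and tenascin C, *Tnc*, a matrix glycoprotein, rose by 2.10 and 1.55.

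Of 24 proteases and inhibitors, 16 were tested, with 9 higher and 1 lower in medium and 13 and 1 with cytokines (all genes tested, 25.3% and 21.7%, then 23.5% and 22.1%). Of the 16, 6 reached the filter only with the shRNA-*Ddx5* libraries (*Mmp12*, *Mmp13*, *Mmp19*, *Adamts2*, *Adamts3* and *Adamts14*) and made up 4 of the 9 and 6 of the 13 higher calls. Such entry favours a higher call without fixing it. Over all genes tested, 689 entered in this way, and 315 of them were higher in medium and 342 with cytokines. Of the other 10 genes, 5 were higher and 1 lower in medium and 7 and 1 with cytokines. *Adamts2*, a procollagen N-proteinase, rose by 1.29 and 1.52 on the log2 scale and the inhibitor *Timp1* by 1.49 and 1.61. *Mmp3* and *Mmp13* stayed below 0.1 FPKM on average in both lines in medium and with cytokines reached 6.01 and 1.71 FPKM in shRNA-NC and 23.4 and 9.81 FPKM in shRNA-*Ddx5* (log2 fold change 2.29 and 2.28, limma adjusted p = 0.00299 and 0.000585). The shRNA-NC means with cytokines rested on replicate 2, at 14.3 FPKM for *Mmp3* and 4.25 FPKM for *Mmp13*, and without it they were 1.84 and 0.441 FPKM. Of 11 fibrillar collagens, 8 were tested, 6 higher and 2 lower in each of the comparisons, with *Col11a1* in the test only through shRNA-*Ddx5* and *Col2a1* only through shRNA-NC, and of the 9 related network and beaded collagens outside the 10 genes only *Col4a5* was tested. Of the other FACIT genes only *Col20a1* was tested, and it passed in neither comparison (-0.29 and -0.16, limma adjusted p = 0.0534 and 0.281).

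**Figure D5:**
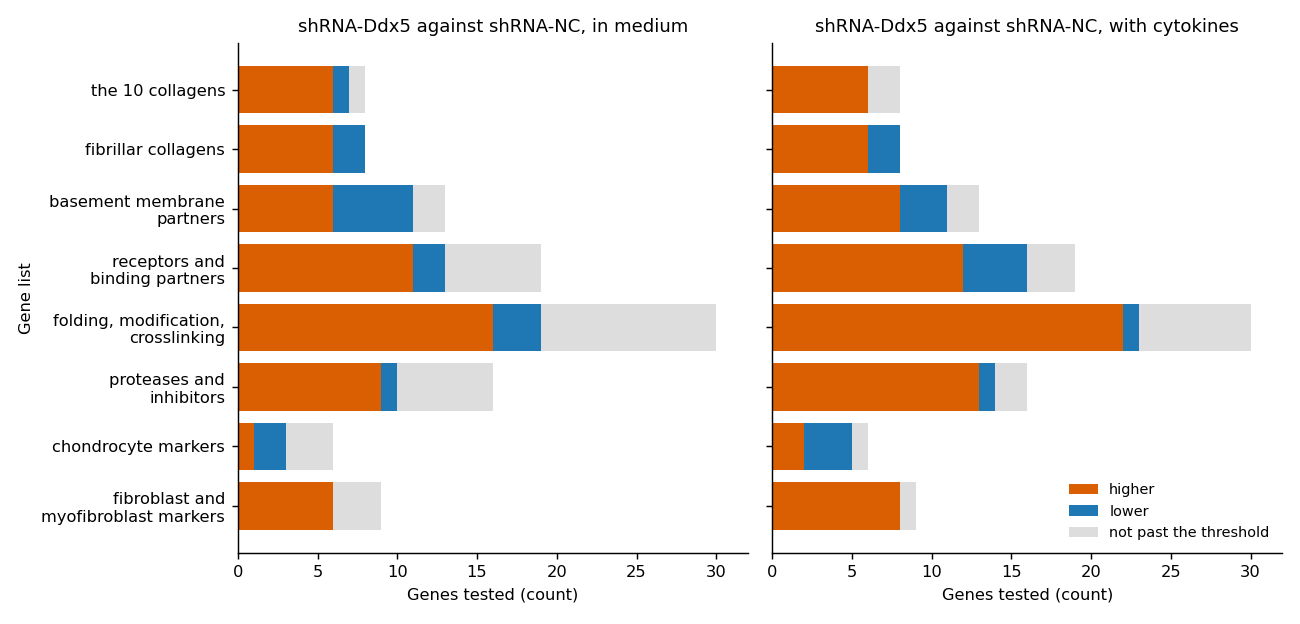
Number of genes tested (x axis, count) in each gene list (y axis) that were higher (orange), lower (blue) or not past an adjusted p of 0.05 (grey) in shRNA-Ddx5 against shRNA-NC, in medium on the left and with cytokines on the right (limma). The folding, modification and crosslinking list has 16 higher and 3 lower in medium and 22 and 1 with cytokines, and the 10 collagens, of which 8 were tested, have 6 and 1, then 6 and 0.

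Markers of other cell types were read in the same libraries. The 19 chondrocyte markers, 6 of them tested, summed to a mean of 46.0 FPKM in shRNA-NC and 34.9 FPKM in shRNA-*Ddx5* in medium, and to 19.5 and 14.5 FPKM with cytokines. Without *Col2a1* the sums were 33.6 and 34.0 FPKM in medium and 13.1 and 13.8 FPKM with cytokines. *Sox9*, the most abundant on average, had 27.5 and 24.1 FPKM in medium (log2 fold change -0.19, limma adjusted p = 0.0947). With cytokines *Sox9* had 8.76 and 5.40 FPKM (-0.61, limma adjusted p = 0.000174). There *Col11a1* had 0.284 and 3.04 FPKM and *Prg4* had 0.226 and 1.30 FPKM. Of the 6, 1 was higher and 2 were lower in medium, and 2 were higher and 3 lower with cytokines. *Col11a1* and *Prg4* reached the filter only with the shRNA-*Ddx5* libraries and *Col2a1* only with the shRNA-NC libraries, and of the other 3 none was higher, 1 was lower in medium and 2 were lower with cytokines. Of 17 fibroblast and myofibroblast markers, 9 were tested, and 6 were higher in medium and 8 with cytokines, with none lower, where 25.3% and 23.5% of all genes tested were higher. *Acta2* and *Dcn* reached the filter only with the shRNA-*Ddx5* libraries, and without them 4 and 6 of 7 were higher. That list summed to a mean of 1997 FPKM in shRNA-NC and 3473 FPKM in shRNA-*Ddx5* in medium, and to 1734 and 3369 FPKM with cytokines. It holds *Col1a1*, *Col1a2*, *Col3a1* and *Dcn*, which stand in the lists above as well. In that sum *Col1a2* had 499 and 1738 FPKM in medium and 319 and 1321 FPKM with cytokines. *S100a4* had 1409 and 1255 FPKM in medium and 1361 and 1574 FPKM with cytokines. Together they make up most of the sum, so it says little about the other markers. Smooth muscle actin, *Acta2*, rose from 0.546 to 11.7 FPKM and from 1.19 to 18.5 FPKM, the 1.19 FPKM being 0.562 FPKM without shRNA-NC with cytokines replicate 2, whereas *Tagln* did not exceed 0.0337 FPKM and *Thy1* did not exceed 0.0613 FPKM in any library. *S100a4*, at 998 to 1860 FPKM the most abundant of that list over all libraries though below *Col1a2* in shRNA-*Ddx5* in medium, passed in neither comparison. No marker of endothelium or epithelium passed the filter. The 10 endothelial markers summed to at most 0.656 FPKM in a library, with *Esam* the most abundant and 5 at 0 throughout, and the 8 epithelial markers summed to at most 0.211 FPKM. Of 8 leukocyte markers only *Cd68* passed, at 0.89 to 2.1 FPKM. The part of the fibroblast markers that were higher, of which *Col1a1*, *Col1a2* and *Col3a1* are collagens themselves, in the rise of the 6 genes called higher among the 10 was not tested.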

How the data were processed

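The 12 poly(A) RNA libraries were sequenced as read pairs. The deposited table gives FPKM per gene for each library. The submitters' processing notes name HISAT2 2.0.5, featureCounts 1.5.0-p3, DESeq2 1.20.0 and GATK 3.7 with mm10, while the chromosome accessions in the table are those of GRCm39, whose coordinates are used here. Strand use in counting is not given in the sources used here. FPKM times gene length came out as whole multiples of 1 step per library (largest distance from a whole number 3.86e-08), which gave 14119199 to 19276520 fragments per library, so counts of a few fragments are imprecise. Groups came from the labels. Genes with at least 1 FPKM in at least 3 libraries (12368 of 46731) were tested with limma 3.58.1 in R 4.3.3 on log2(FPKM + 1), with 4 group means, moderated variances with a trend and Benjamini-Hochberg adjustment over all genes, at 0.05. A fold change on this scale understates the change of low genes. On simulated data for the knockdown in medium, with 200 of 12368 genes changed by 2 times, 181 (90.5%) were recovered and 11 unchanged genes were called. The simulation gave every gene the same spread between libraries beyond counting, and few genes changed, where 47.0% were called in the data. That recovery therefore does not describe how the test performs on these data. Each fit was repeated with 0.1 as the pseudocount, without the filter, with at least 1 FPKM required in all 12 libraries, and with quantile normalization, scaling to the sum of fragments, no variance trend, limma voom on recovered fragments, the 6 libraries of a comparison alone, a replicate block and each library left out. The 10 genes and the gene lists were chosen with earlier results of these data known. Bounds given beside a fold change are 95% confidence intervals. All 10 genes are named, with the gene most similar to each and, from each list, the rises and falls of largest size past the threshold, from which the text takes a part; *Serpinh1*, *Itgb1*, *Acta2*, *Col20a1*, *Col2a1*, genes named for how they passed the filter and the genes around *Col6a1* were chosen after their values were seen. P-values measure the spread between the 3 libraries of a group, which the study describes as independent experiments.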

Additional observations from a re-analysis of the deposited data

Results flagged for a closer look

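The effect of the hairpin on *Col7a1* was smaller with cytokines than in medium, by -0.587 on the log2(FPKM + 1) scale (limma interaction, adjusted p = 0.0493), and this is why it is listed here. All 3 shRNA-*Ddx5* libraries lay above all 3 shRNA-NC libraries both in medium (4.05 to 4.96 against 0.302 to 0.671 FPKM) and with cytokines (1.92 to 2.09 against 0.188 to 0.335 FPKM). The difference between the effects was -0.39 with a pseudocount of 0.1 (limma adjusted p = 0.57) and -0.21 with limma voom on recovered fragments (adjusted p = 0.783), and the call was lost in each of the 12 fits without 1 library. The cause was not tested.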

How the results depend on the processing

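No called value changed sign under any alternative run. Of 337 values for single genes under alternatives other than leaving out a library, 318 kept their direction and their side of the threshold, 4 gained a call and 15 lost one. The number of the 8 genes called for cytokines in shRNA-NC, 3 as reported, was 5 with quantile normalization and with limma voom on recovered fragments. For cytokines in shRNA-*Ddx5* it was 2 in place of 5 under the filter on all 12 libraries, where 5 of the genes were tested. For the interaction it was 0 in place of 1 with a pseudocount of 0.1, with no filter, with the filter on all 12 libraries, with scaling to the sum of fragments, with limma voom and with the replicate block. Leaving out 1 library at a time gave 6 to 7 genes called for the knockdown in medium, 6 to 7 with cytokines, 2 to 5 for cytokines in shRNA-NC (5 without shRNA-NC with cytokines replicate 2), 4 to 5 in shRNA-*Ddx5* and 0 to 2 for the interaction (2 without that same library). Over all genes the counts then ran from 4831 to 6201, 4506 to 6054, 3220 to 4574, 2284 to 3839 and 559 to 1123 in the same order. The log2 ratio of *Col4a1* to *Col4a2* then ran from -0.85 to 0.49 in shRNA-*Ddx5* in medium.

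Deviations of same-numbered libraries correlated at a mean r of -0.045 over all pairs of groups, and others at 0.0216. Of the same-numbered pairs, 4 of 18 were over 0.1. Between shRNA-NC and shRNA-*Ddx5* in medium, r was 0.448, 0.0425 and 0.313 for replicates 1, 2 and 3. Between shRNA-*Ddx5* in medium and shRNA-NC with cytokines it was -0.394, -0.204 and -0.213. Whether the replicate numbers pair the samples was not tested. With the number as a replicate block, 6, 6, 3, 5 and 0 of the 8 genes were called in the order above, and the *Col16a1* call in medium (0.64, limma adjusted p = 0.0573) was lost. That call was also lost with a pseudocount of 0.1, with no filter, with scaling to the sum of fragments and in the 6 libraries alone. Of all genes called for the knockdown in medium, 53.8% were higher as reported, 42.5% with scaling to the sum of fragments and 49.5% with quantile normalization. For the knockdown with cytokines the share was 51.5% as reported, 44.3% with that scaling and 47.2% with quantile normalization. For cytokines in shRNA-NC the share was 55.1% as reported, 42.2% with that scaling and 43.4% with quantile normalization, and in shRNA-*Ddx5* 50.0%, 42.2% and 39.0%. Few fragments limit *Col4a1*, *Col4a2* and, in shRNA-NC, *Col7a1*.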
